A study of Mus musculus with 8 samples.

Results

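The genes described here mark the walls of brain blood vessels: 21 endothelial genes and 11 genes of mural cells, the pericytes and smooth muscle cells that wrap the endothelium. They were taken by symbol, not by a cutoff on measured values, though with earlier results of these data known. All 32 were found among the 37310 genes of the count table and passed the filter on low counts. Their RNA was counted in whole hippocampi of 4 mice with an Nr2f1 heterozygous knockout (Nr2f1 het) and of 4 wild-type (WT) mice. Every animal was a B6.129 F1-hybrid, labelled male and 3 months old, with no treatment. The labels do not describe the knockout allele beyond its heterozygous state, and none of them names a Cre driver or a cell type to which it is restricted.

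Vessels of the brain form the blood-brain barrier, in which endothelial cells are sealed by tight junctions and carry nutrients and drugs through dedicated transporters. Vascular endothelial growth factor and angiopoietins act on endothelial receptor kinases, while endothelial platelet-derived growth factor recruits pericytes through the receptor encoded by Pdgfrb. Smooth muscle cells surround arterioles and hold the contractile proteins that set vessel diameter. Nr2f2, the close relative of Nr2f1, is known for its role in vein identity.

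The 8 libraries held 58717305 to 90043971 gene counts. Values are given as CPM, read counts scaled to the TMM-normalised size of each library, and were compared with the quasi-likelihood test of edgeR over all 17913 genes tested, at an adjusted p of 0.05. Nr2f1 itself ran from 28.5 to 33.5 CPM in Nr2f1 het libraries and from 49.5 to 54.1 CPM in WT libraries, so the label and the targeted gene went together. Other labels did not all do so. Although all animals were labelled male, every library had Xist, at 463.2 to 601.4 CPM, and no library had more than 1 count over all 14 Y-linked genes. Of the hippocampal markers, Prox1 of dentate granule cells lay between 52.3 and 62.3 CPM in Nr2f1 het and between 48.3 and 65.0 CPM in WT libraries, and Wfs1 of CA1 cells between 272.3 and 299.5 CPM and between 307.9 and 365.1 CPM in that order. The ratio of spike-in ERCC-00130 to ERCC-00002 was 1.20 to 1.28 in odd-numbered and 0.165 to 0.186 in even-numbered libraries, so the spike-in mix differed with the replicate number in both genotypes. Choroid plexus genes differed widely between libraries: the 12 listed genes summed to 5611 to 6468 CPM in Nr2f1 het libraries and to 218.0, 2171, 750.4 and 2976 CPM in WT libraries 1 to 4, and none was at 0 in any library.

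Endothelial genes as a group were at close to the same level in both genotypes, while the median fold of the mural genes was somewhat above 1. Acta2, the smooth muscle actin gene, was higher in Nr2f1 het hippocampus and was the 1 gene of 32 to pass the test. Over all genes tested 2.99% passed, 2.62% higher and 0.368% lower, so the members' count is near the background. An unadjusted p under 0.05 was reached by 6 members, 5 higher and 1 lower, where 17.2% of all genes tested did so. The CPM ranges of the genotypes did not overlap for 1 member, again Acta2, against 10.6% of all genes tested. The 21 endothelial genes had a median log2 fold change (Nr2f1 het over WT) of -0.016, from -0.23 to 0.26, with 9 positive and 12 negative. The 11 mural genes had a median of 0.14, from -0.098 to 0.54, with 8 positive and 3 negative. The median over all genes tested was -0.0056. With upper quartile scaling 10 of the 21 endothelial and 10 of the 11 mural values were positive, and with the even-numbered libraries alone the mural median was 0.039.

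**Figure D1:**
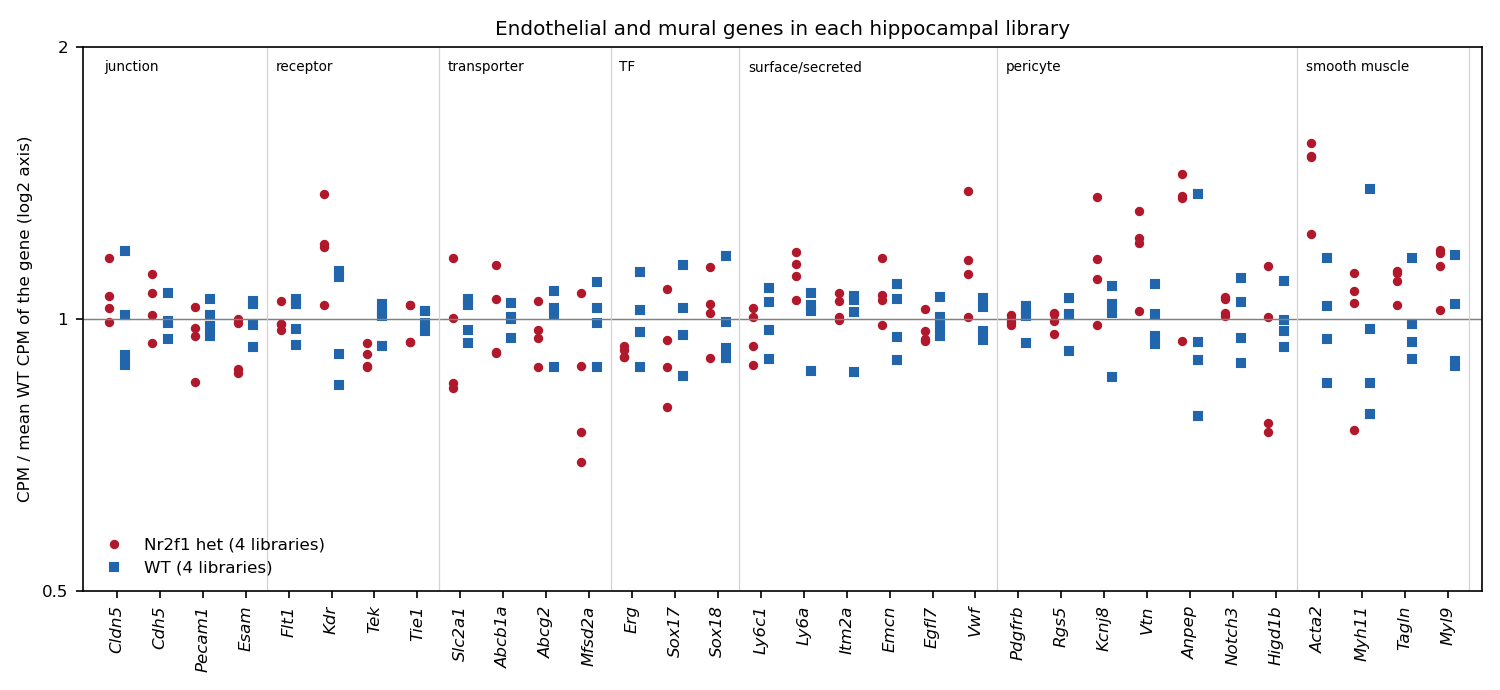
CPM of each vessel gene in each library, divided by the gene's mean WT CPM, on a log2 axis; red circles are the 4 Nr2f1 het libraries and blue squares the 4 WT libraries, grouped by role. Apart from Acta2, the circles of each gene overlap the range of its squares.

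The precision of these measurements was high for most members, which had 72 to 10791 reads in a library. Among the endothelial genes, 21 of 21 had a 95% confidence interval, not adjusted for the number of genes, that lay within a 1.5-fold change in either direction, and 17 of 21 had a fold within 10% of 1. Among the mural genes, 9 of 11 intervals lay within that limit, and the other two were those of Anpep and Acta2. The median coefficient of variation over the 32 genes was 7.28% among Nr2f1 het and 8.36% among WT libraries, where all genes tested had medians of 6.82% and 6.37%. Since whole tissue was measured, a change in the number of vessel cells and a change in RNA per cell cannot be told apart.

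**Figure D2:**
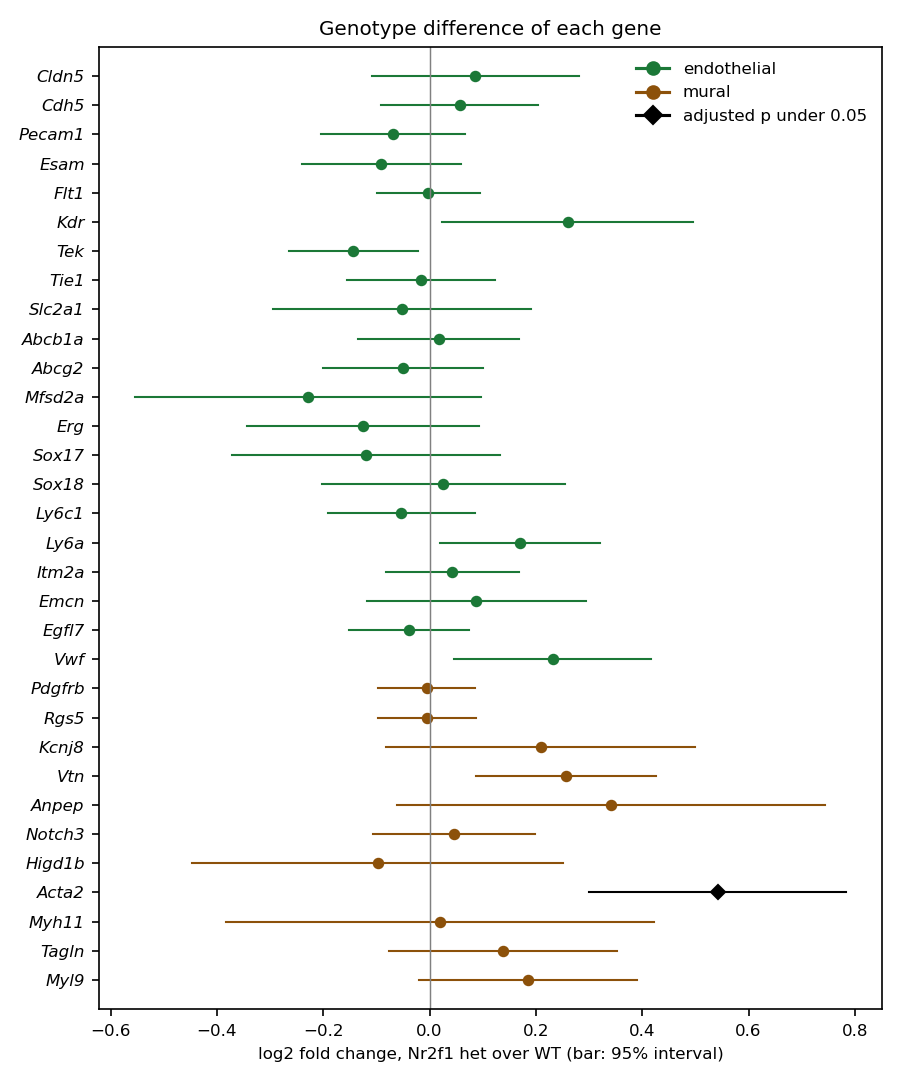
Fitted log2 fold change of each vessel gene, Nr2f1 het over WT, with its unadjusted 95% interval; green marks endothelial and brown mural genes, and the black diamond the gene with an adjusted p under 0.05. Acta2 stands at 0.54 and the endothelial genes lie between -0.23 and 0.26.

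Junction and adhesion genes of the endothelium were at matching levels in the genotypes. None of the 4 passed in edgeR or in the DESeq2 Wald test, and 0 reached an unadjusted p under 0.05. Cldn5, which encodes the main claudin of the barrier, had 16.2, 14.6, 14.2 and 13.7 CPM in Nr2f1 het libraries 1 to 4 and 16.5, 12.6, 14.0 and 12.3 CPM in WT libraries 1 to 4. The highest and the lowest of these 8 values were both WT. Its fold was 1.06, with a 95% interval of 0.928 to 1.21 (edgeR adjusted p = 0.678). Cdh5, the endothelial cadherin gene, averaged 10.4 ± 0.781 CPM in Nr2f1 het and 10.1 ± 0.494 CPM in WT (SD, n = 4 each). Pecam1, an adhesion gene of endothelial contacts, averaged 15.4 ± 1.22 CPM in Nr2f1 het and 16.1 ± 0.652 CPM in WT (SD, n = 4 each). Esam, an endothelial adhesion molecule gene, averaged 9.97 ± 0.736 CPM and 10.7 ± 0.567 CPM in the same order. The fold of the 4 genes ran from 0.939 to 1.06.

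The growth factor receptor genes included both Flt1, with a fold close to 1, and Kdr and Tek, with larger differences of opposite sign. Flt1, which encodes VEGF receptor type 1, had 49.3, 49.3, 52.3 and 48.6 CPM in Nr2f1 het libraries and 51.9, 46.7, 52.6 and 48.7 CPM in WT libraries. All 8 values fell within a narrow band, with a fold of 0.999 and an interval of 0.934 to 1.07. Kdr, the gene of VEGF receptor type 2, had 13.0, 11.3, 9.75 and 11.4 CPM in Nr2f1 het and 8.61, 7.95, 10.6 and 10.5 CPM in WT. Nr2f1 het library 3 was below WT libraries 3 and 4, so the groups overlapped, and the fold of 1.20 (interval 1.02 to 1.41) did not pass (edgeR adjusted p = 0.240). Tek, the angiopoietin receptor gene, had 11.8, 11.5, 11.1 and 11.1 CPM in Nr2f1 het and 13.0, 11.7, 12.8 and 12.7 CPM in WT. Only WT library 2 reached down into the Nr2f1 het range, yet the fold of 0.905 (interval 0.832 to 0.985) did not pass (edgeR adjusted p = 0.202). Tie1, the gene of the related orphan receptor, averaged 8.46 ± 0.457 CPM in Nr2f1 het and 8.55 ± 0.218 CPM in WT (SD, n = 4 each).

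Of the 4 barrier transporter genes, Slc2a1 and Mfsd2a varied more among Nr2f1 het libraries than between the genotypes. Slc2a1, the glucose transporter gene and the member with the highest level per length in WT (29.2 CPM per kilobase of exon), had 85.8, 86.9, 119.4 and 102.6 CPM in Nr2f1 het libraries and 99.5, 105.9, 96.2 and 107.7 CPM in WT libraries. Mfsd2a, the gene of a lipid carrier of brain endothelium, had 36.8, 39.8, 56.7 and 47.1 CPM in Nr2f1 het libraries and 58.2, 52.5, 46.9 and 54.6 CPM in WT libraries. In both genes Nr2f1 het libraries 1 and 2 were below all 4 WT libraries and library 3 was the highest of its genotype. The fold was 0.965 for Slc2a1 (interval 0.816 to 1.14) and 0.853 for Mfsd2a (interval 0.681 to 1.07), and neither passed (edgeR adjusted p = 0.860 and 0.466). The efflux pump genes Abcb1a and Abcg2 had folds of 1.01 and 0.966. They too were highest, among Nr2f1 het libraries, in library 3, at 29.4 and 16.3 CPM. Abcb1a has a close paralog, Abcb1b, with which the counting could split reads; that gene averaged 3.67 ± 0.286 CPM in Nr2f1 het and 4.48 ± 0.519 CPM in WT (SD, n = 4 each) and did not pass (edgeR adjusted p = 0.197).

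Endothelial transcription factor genes had 192 to 496 reads in a library and similar levels in both genotypes. Erg, an ETS factor gene of endothelial identity, averaged 3.24 ± 0.0446 CPM in Nr2f1 het and 3.53 ± 0.360 CPM in WT (SD, n = 4 each). Sox17, a gene of arterial endothelium, averaged 4.06 ± 0.517 CPM and 4.38 ± 0.523 CPM in that order, and Sox18, its relative, 4.99 ± 0.473 CPM and 4.86 ± 0.595 CPM. Of the 3 genes, 0 passed in edgeR or in the DESeq2 Wald test and 0 reached an unadjusted p under 0.05, and the fold ran from 0.917 to 1.02.

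Of the 6 surface and secreted endothelial genes, 4 had positive log2 fold changes, and none passed in edgeR or in the DESeq2 Wald test. Vwf, the von Willebrand factor gene, more abundant in large vessels than in capillaries, had 14.6, 16.3, 20.1 and 16.8 CPM in Nr2f1 het libraries and 14.1, 13.7, 15.3 and 15.0 CPM in WT libraries. Nr2f1 het libraries 2, 3 and 4 lay above all WT libraries and library 1 lay among them; the fold of 1.17 (interval 1.03 to 1.34) did not pass (edgeR adjusted p = 0.177). Ly6a, the Sca-1 gene, had 13.7, 12.9, 14.6 and 14.1 CPM in Nr2f1 het and 12.5, 13.1, 10.7 and 12.7 CPM in WT. Its lowest Nr2f1 het value was below the highest WT one, and its fold was 1.13 (edgeR adjusted p = 0.224). Ly6c1, from the same family, had a fold of 0.964; genes of this family are similar enough for counting to split their reads. The membrane protein gene Itm2a, the endomucin gene Emcn and Egfl7, which encodes a secreted endothelial factor, had folds of 1.03, 1.06 and 0.974. In the GENCODE annotation, exons of 6 of the 32 members overlap those of another gene, and the library kit does not mark strand. Egfl7 overlaps the protein-coding genes Agpat2 on the other strand and Gm20532 on its own, besides the microRNA genes Mir126a and Mir126b. Abcb1a, Notch3, Slc2a1 and Sox17 each overlap 1 gene on the other strand that is not annotated as protein-coding, and the sixth member is Tagln.

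Pericyte genes included members with nearly the same level in all 8 libraries. Of the 7 genes, 0 passed in edgeR, 1 had an unadjusted p under 0.05 and 1 passed in the DESeq2 Wald test, in both cases Vtn. Pdgfrb, the receptor through which pericytes are recruited, had 26.4, 26.9, 26.2 and 26.6 CPM in Nr2f1 het libraries and 27.5, 25.0, 26.9 and 27.2 CPM in WT libraries. Rgs5, a G-protein signalling regulator and widely used pericyte marker, had 71.1, 71.3, 69.7 and 67.6 CPM in Nr2f1 het and 73.9, 71.1, 70.9 and 64.7 CPM in WT. In both genes the Nr2f1 het range lay inside the WT range. The fold was 0.996 for Pdgfrb and 0.997 for Rgs5, with intervals of 0.935 to 1.06 for both. Notch3, the Notch receptor gene of mural cells, had a fold of 1.03, and Higd1b, a pericyte marker with 72 to 165 reads in a library, a fold of 0.934 (interval 0.734 to 1.19). Kcnj8, the gene of the pore subunit of a potassium channel gated by ATP, had a fold of 1.16 (interval 0.945 to 1.41).

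Vtn and Anpep were the pericyte genes with the larger folds. Vtn, which encodes the matrix protein vitronectin, had 57.2, 56.5, 61.3 and 47.5 CPM in Nr2f1 het libraries and 43.7, 44.6, 47.1 and 50.9 CPM in WT libraries. Nr2f1 het libraries 1 to 3 lay above every WT library and library 4 fell among them. The fold of 1.19 (interval 1.06 to 1.34) did not pass (edgeR adjusted p = 0.107). It passed in the DESeq2 Wald test (adjusted p = 0.0175), without Nr2f1 het library 4 (edgeR adjusted p = 0.0227) and in the odd-numbered libraries alone (edgeR adjusted p = 0.0157), but not in the even-numbered ones, at 0.12 on the log2 scale (edgeR adjusted p = 0.859). Anpep, the aminopeptidase N gene, had 3.81, 4.05, 3.83 and 2.64 CPM in Nr2f1 het and 2.52, 2.64, 2.18 and 3.85 CPM in WT. Library 4 stood at the other end of the range from the remaining libraries in both genotypes, low in Nr2f1 het and high in WT. The fold of 1.27 had the widest pericyte interval, 0.958 to 1.67 (edgeR adjusted p = 0.380). Fibroblast genes of the meninges and vessel surroundings also differed in WT library 4: the 9 listed genes summed to 329.9, 393.7, 371.7 and 329.8 CPM in Nr2f1 het libraries and to 98.8, 159.2, 133.5 and 248.5 CPM in WT libraries, and their part in the Anpep and Vtn values was not tested.

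Contractile genes of smooth muscle are known targets of serum response factor, which binds the CArG box, a run of A or T between CC and GG. Promoter sequence of RefSeq (build GRCm38.p6, 250 bases before the start) was matched for 7 of the 11 mural genes. No sequence was matched for Tagln, Myh11, Pdgfrb and Higd1b, so these were not searched for the box. The sequences of Acta2 and Myl9 are shown because, of the genes searched, these held a CArG box or a stretch off by a single letter inside the run. Stretches with a changed letter in the CC or GG were not searched for. Capitals mark exact CArG boxes in Myl9 and, in Acta2, the stretches with a single letter other than A or T inside the run. The Acta2 window is chr19:34255374-34255623 on the minus strand and the Myl9 window chr2:156775214-156775463 on the plus strand.
Acta2: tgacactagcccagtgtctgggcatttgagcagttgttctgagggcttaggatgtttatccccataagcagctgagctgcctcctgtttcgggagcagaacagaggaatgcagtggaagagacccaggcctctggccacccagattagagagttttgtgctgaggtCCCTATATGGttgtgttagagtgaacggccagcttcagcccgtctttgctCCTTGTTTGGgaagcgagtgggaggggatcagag
Myl9: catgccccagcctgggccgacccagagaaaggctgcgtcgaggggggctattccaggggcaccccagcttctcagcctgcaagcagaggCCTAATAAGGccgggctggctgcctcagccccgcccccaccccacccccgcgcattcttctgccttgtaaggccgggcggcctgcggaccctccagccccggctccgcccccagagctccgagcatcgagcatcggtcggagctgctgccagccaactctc
The Acta2 window held CCCTATATGG, beginning 84 bases before the start, and CCTTGTTTGG, beginning 34 bases before it, and no exact box. The Myl9 window held an exact box beginning 161 bases before the start. It also held 1 stretch off by a single letter inside the run, which is not in capitals. On either strand, an exact box was present in windows of 1.62% of 27025 genes with a promoter in the table, and a stretch off by a single letter inside the run in 8.33%. These are matches of letters and do not show binding; the genotype values of the genes follow.

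Acta2 (ENSMUSG00000035783.8, chromosome 19) had 5.66, 4.65, 5.87 and 5.67 CPM in Nr2f1 het libraries 1 to 4 and 3.19, 3.56, 4.37 and 3.87 CPM in WT libraries 1 to 4. Every Nr2f1 het library lay above every WT library, Nr2f1 het library 2 being closest to WT library 3. The means were 5.46 ± 0.550 CPM in Nr2f1 het and 3.75 ± 0.503 CPM in WT (SD, n = 4 each), from 333 to 531 and from 239 to 349 reads in a library. The log2 fold change was 0.54 ± 0.112 (SE), a 1.46-fold difference with an interval of 1.23 to 1.72 (edgeR adjusted p = 0.0241). Leaving out Nr2f1 het library 1, 3 or 4 or WT library 1 or 2 moved the adjusted p over the threshold, to 0.0576, 0.0700, 0.0644, 0.0702 and 0.0555 in that order, with log2 fold changes between 0.48 and 0.53. With 2 animals a genotype, odd-numbered libraries alone gave 0.62 (edgeR adjusted p = 0.109) and even-numbered libraries alone 0.47 (edgeR adjusted p = 0.326) on the log2 scale. Actg2, an actin gene of similar sequence, had 1 to 6 reads in a library.

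The other smooth muscle genes did not pass. Tagln, the transgelin gene, had 4.44, 4.09, 4.46 and 4.34 CPM in Nr2f1 het libraries and 3.89, 3.56, 4.61 and 3.72 CPM in WT libraries, a fold of 1.10 (interval 0.948 to 1.28). Its exons overlap those of Pcsk7 on the other strand, so reads within the shared stretch cannot be told apart by strand. Myh11, the smooth muscle myosin heavy chain gene, had 3.28, 4.53, 4.89 and 4.68 CPM in Nr2f1 het and 3.41, 4.24, 6.07 and 3.69 CPM in WT, a fold of 1.01 (interval 0.767 to 1.34). Myl9, a regulatory light chain gene, had 9.31, 9.61, 9.70 and 8.31 CPM in Nr2f1 het and 7.30, 8.43, 9.58 and 7.21 CPM in WT, a fold of 1.14 (edgeR adjusted p = 0.345). Within both genotypes, library 3 was the highest in 4 of 4 smooth muscle genes. As a percent of the summed CPM of Tagln, Myh11 and Myl9, Acta2 stood at 33.2, 25.5, 30.8 and 32.7 in Nr2f1 het libraries and at 21.8, 21.9, 21.6 and 26.5 in WT libraries; this ratio was chosen after the values were seen and was not tested. On that scale Nr2f1 het library 2 lay below WT library 4, so the genotypes overlapped. Among WT libraries, Acta2 and the choroid plexus sum were both lowest in library 1, while Acta2 was highest in library 3 and second highest in library 4, and the plexus sum was highest in library 4; the part of choroid plexus tissue in its difference between the genotypes was not tested.

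**Figure D3:**
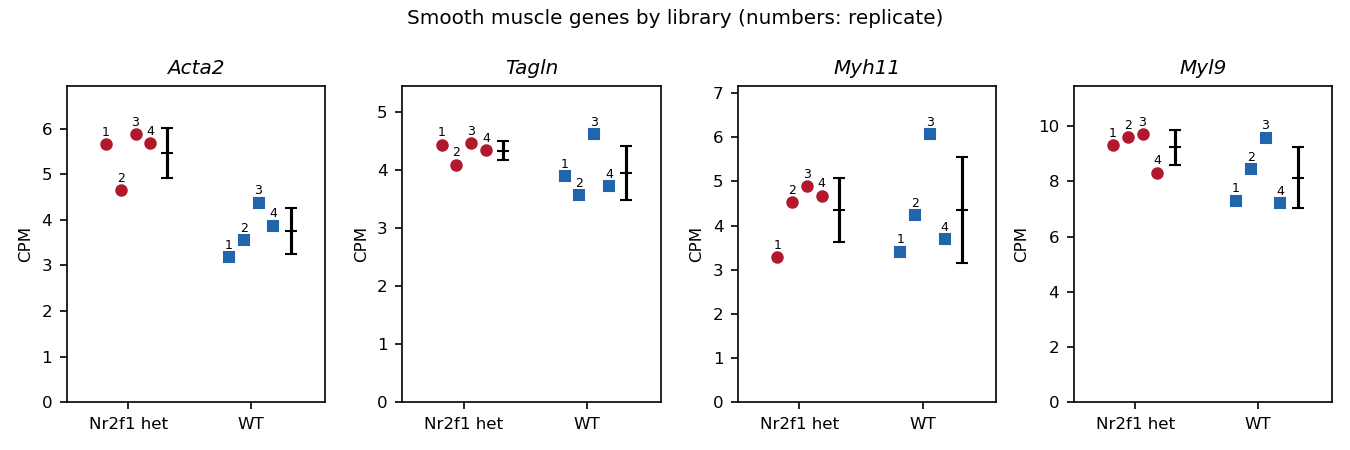
CPM of the 4 smooth muscle genes in each library, with replicate numbers; red circles are Nr2f1 het, blue squares WT, and black bars the mean ± SD of 4 libraries. Acta2 lies between 4.65 and 5.87 CPM in Nr2f1 het and between 3.19 and 4.37 CPM in WT, while the ranges of Tagln, Myh11 and Myl9 overlap.

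Averaged over the list, the endothelial level differed little between libraries. The mean log2 CPM of the 21 endothelial genes, centred on the 8 libraries, lay between -0.027 and 0.063 in Nr2f1 het and between -0.030 and 0.038 in WT. The same measure of the 11 mural genes was 0.047, 0.074, 0.19 and -0.016 in Nr2f1 het libraries and -0.16, -0.086, 0.021 and -0.073 in WT libraries. WT library 3 lay above Nr2f1 het library 4, so the genotypes overlapped in both lists. The choroid plexus measure ran from 1.11 to 1.34 in Nr2f1 het and from -3.35 to 0.31 in WT, and the ependymal one from 0.47 to 1.06 and from -1.34 to -0.14 in that order. Blood genes summed to 328.0, 182.1, 227.7 and 100.6 CPM in Nr2f1 het and to 160.8, 148.3, 121.3 and 101.6 CPM in WT, a wider range than that of the vessel genes. Over all genes tested, 17.2% had an unadjusted p under 0.05. The DESeq2 Wald test called 1183 of 27028 genes with any count. Of these other lists, choroid plexus had 0 of 12 genes past the edgeR test (11 with an unadjusted p under 0.05 and 5 called by the DESeq2 Wald test), fibroblasts 0 of 9 (5 and 4) and blood 0 of 5 (0 and 0). Ependymal genes had 4 of 6 (6 and 6), all 4 higher in Nr2f1 het, where 2.62% of all genes tested were called higher. Microglia and macrophage genes had 0 of 9 (1 and 1) and astrocyte genes 0 of 6 (2 and 0). Of 6 neuronal genes 2 fell, Snap25 and Rbfox3, to 0.873 and 0.912 of WT, where 0.368% of all genes tested were called lower; 4 of the 6 had an unadjusted p under 0.05 and 3 were called by the DESeq2 Wald test.

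**Figure D4:**
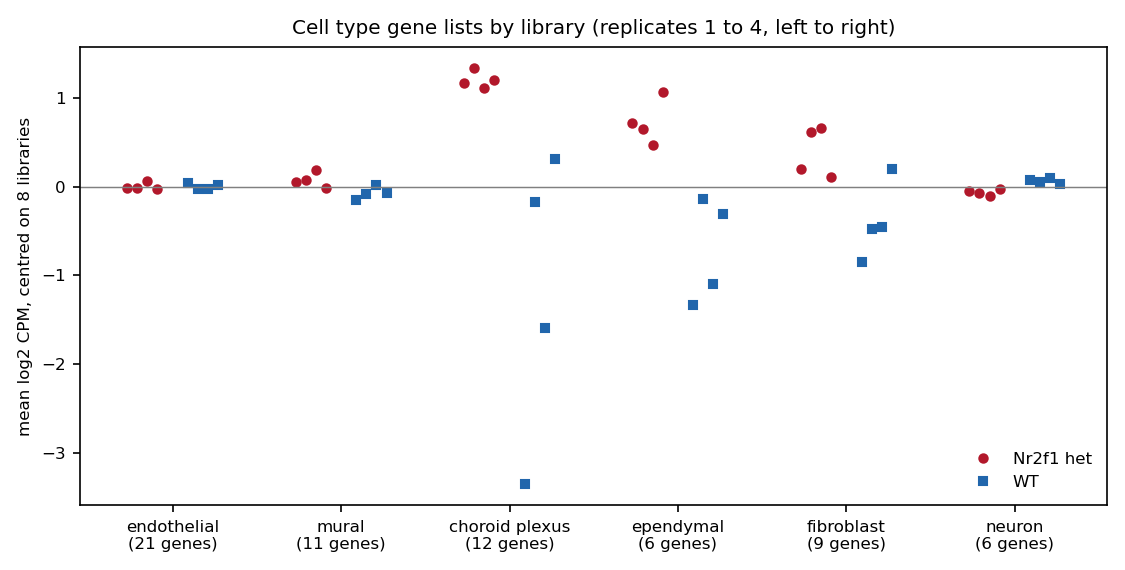
Mean log2 CPM of each cell type list, centred on its mean over the 8 libraries; red circles are Nr2f1 het and blue squares WT libraries, 1 to 4 from left to right. Endothelial values stay between -0.030 and 0.063, while choroid plexus values in WT run from -3.35 to 0.31.

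Further vascular genes were taken from 9 lists drawn up by role, with earlier results of these data known: growth factor ligands, Notch and TGF-beta signalling, Wnt signalling of the barrier, tight junction genes, transporters, further endothelial genes, arterial and venous genes, further mural genes and basement membrane genes. The lists held 138 of the genes counted; 135 of them were tested, and 15 passed, all higher in Nr2f1 het. That is 11.1% of them, against 2.62% of all genes tested that were called higher, and it describes lists that were not chosen independently of these data. The median log2 fold change of the 135 genes was 0.061, beside -0.0056 over all genes tested. Many of the 15 are known to be used outside vessels as well, and tight junction and basement membrane genes among them are also known from choroid plexus epithelium. Within WT, 10 of the 15 were lowest in library 1 and 12 of 15 were highest in library 4, the libraries with the lowest and the highest choroid plexus sum. The same was not counted over all 535 genes called, so it is not known whether the 15 differ from these. Of the 21 endothelial genes, 1 was lowest in WT library 1 and 4 were highest in WT library 4. Of the 11 mural genes, 4 were lowest in WT library 1, Acta2 among them, and 2 were highest in WT library 4. Of the 15, 12 passed with odd-numbered libraries alone, 2 with even-numbered libraries alone and 4 with WT libraries 1 and 3 both left out. Of all 535 genes called, 56.1%, 8.97% and 22.8% did so in that order. The part of choroid plexus tissue in these values was not tested.

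Among tight junction genes 3 of 13 rose, namely the occludin gene Ocln 1.37-fold, the junctional adhesion gene F11r 1.44-fold and the claudin gene Cldn3 2.16-fold (edgeR adjusted p = 0.00513, 0.0118 and 0.0443). Ocln had 14.6, 15.3, 15.2 and 14.1 CPM in Nr2f1 het and 10.9, 10.5, 9.83 and 11.8 CPM in WT, so the groups stood apart, unlike those of Cldn5. Of 13 transporter genes 2 rose: the organic anion transporter Slco1c1 1.30-fold and the efflux pump Abcc4 1.26-fold (edgeR adjusted p = 0.00862 and 0.0249). Of 14 basement membrane genes 4 rose: the nidogen gene Nid2 2.50-fold, the laminin genes Lama5 1.52-fold and Lamb2 1.19-fold and the perlecan gene Hspg2 1.46-fold (edgeR adjusted p = 0.0379, 0.0108, 0.0241 and 0.0465). Nid2 had 8.77, 10.2, 9.30 and 9.51 CPM in Nr2f1 het and 2.07, 3.83, 2.93 and 6.09 CPM in WT, lowest in WT library 1 and highest in WT library 4.

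In the remaining lists few genes passed. Tgfbr2, a TGF-beta receptor gene, was the 1 of 15 Notch and TGF-beta list genes that rose (1.24-fold), and Lrp5, a Wnt co-receptor gene, the 1 of 14 barrier Wnt genes (1.26-fold; edgeR adjusted p = 0.0235 and 0.0231). Bsg, the basigin gene, rose 1.19-fold and Pltp, a phospholipid transfer protein gene, 1.68-fold, the 2 of 20 further endothelial genes tested (edgeR adjusted p = 0.00862 and 0.00704). Vcam1, an adhesion gene of activated and venous endothelium, rose 1.27-fold, the 1 of 12 arterial and venous genes (edgeR adjusted p = 0.00822), and the caldesmon gene Cald1 1.15-fold, the 1 of 21 further mural genes tested (edgeR adjusted p = 0.0286). Exons of Pltp and Nid2 overlap those of the protein-coding genes Ctsa and Rtraf on the other strand, and exons of Cldn3 and Vcam1 those of antisense genes. In the list of growth factors and angiopoietins 0 of 13 passed in edgeR, 4 had an unadjusted p under 0.05, and 2 passed in the DESeq2 Wald test; the lowest p belonged to Angpt2 and Vegfc, at 1.86-fold and 1.39-fold (edgeR adjusted p = 0.0609 and 0.131). Nr2f2, named as the relative of the targeted gene, had 37.9, 36.8, 43.8 and 32.4 CPM in Nr2f1 het and 20.6, 15.6, 27.8 and 24.5 CPM in WT; the groups did not overlap, but the gene did not pass (edgeR adjusted p = 0.0778). Plvap, a gene of fenestrated vessels such as those of the choroid plexus, had 15.0, 18.1, 16.1 and 15.3 CPM in Nr2f1 het and 15.7, 16.5, 16.2 and 17.2 CPM in WT (edgeR adjusted p = 0.903), with overlapping groups; Plvap was chosen after its values were seen.

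**Figure D5:**
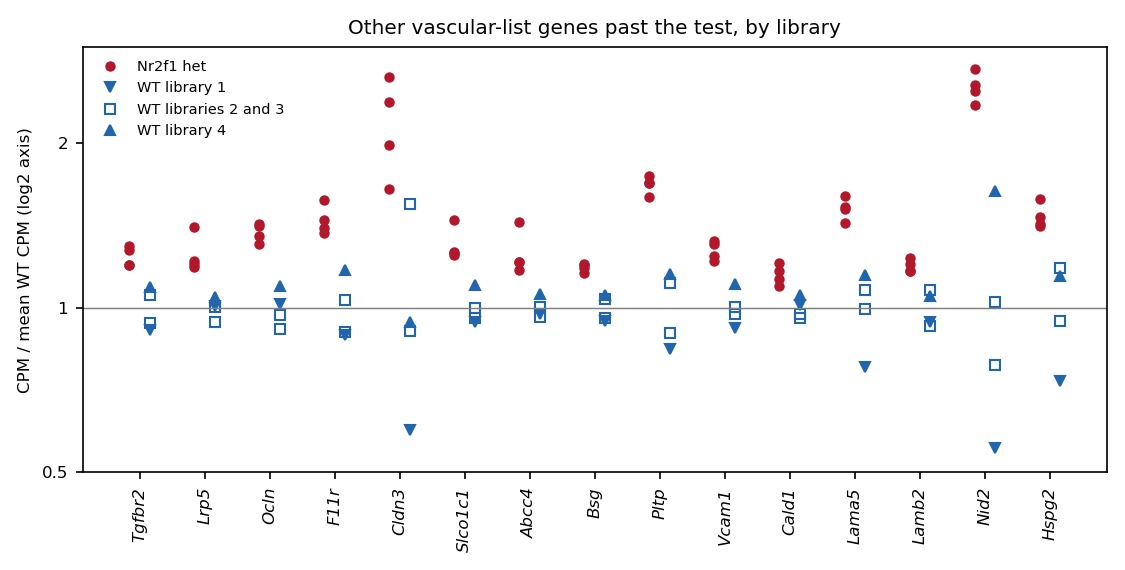
CPM of the 15 further vascular-list genes past the test, divided by the gene's mean WT CPM, on a log2 axis; red circles are Nr2f1 het libraries, downward and upward triangles WT libraries 1 and 4, and open squares WT libraries 2 and 3. The triangles of WT library 1 are the lowest WT value in 10 of 15 genes and those of WT library 4 the highest in 12 of 15.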

How the data were processed

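Hippocampal RNA of 4 Nr2f1 het and 4 WT mice was measured by RNA-seq. Per the labels' protocols, a NuGEN Ovation kit, which does not mark strand, made cDNA by poly(A) and random priming. The authors deposited raw read counts per Ensembl gene, with 1 column for each library. The submitters' processing notes name the tools FastQC, HTSeq, DESeq2 and STAR 2.4.2a and the builds mm9 and NCBIM37, but the annotation and the counting settings are not given in the sources used.

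The 92 spike-in rows were left out of library sizes and tests. Symbols, exon lengths and exon overlaps came from GENCODE M21 (GRCm38), matched by Ensembl ID for 32620 of 37310 genes; promoters came from RefSeq (GRCm38.p6). TMM normalisation followed a low-count filter, filterByExpr (minimum count 10, total 15). Genotypes were compared with the robust quasi-likelihood F test of edgeR 4.0.16 (R 4.3.3), two-sided, and p-values were adjusted by Benjamini-Hochberg over all 17913 genes tested. Standard errors were obtained from the fold change and its F statistic. Folds are those of the fit, and levels per kilobase divide CPM by the summed length of exons. Centred list values used log2 CPM with a prior count of 2. The test was checked on simulated counts. Libraries held 58717305 to 90043971 gene counts, and a count of 0 allowed up to 3 counts, 0.0332 to 0.0510 CPM by library, for counting error only. Each library is a separate animal, per the labels' protocols.

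The members, the lists and the alternatives were chosen with earlier results of these data known. Named are all 32 members, each gene of the further vascular lists past the test and, for a list with none, the 2 genes with the lowest p; Abcb1b, Actg2, Snap25, Rbfox3, Prox1, Wfs1, Nr2f2, Plvap, Cd34 and Myocd are named outside this rule and were chosen with their values known. Alternatives were upper quartile scaling, DESeq2 1.42.0 size factors or its Wald test, no filter, 1 CPM in 4 libraries, leaving out single libraries, a block for the replicate number, the spike-in mix as a covariate, the libraries of either mix, and leaving out WT libraries 1 and 3. The counts of further vascular genes under these settings were added after the data were seen. A gene of those lists is not reported here.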

Additional observations from a re-analysis of the deposited data

How the results depend on the processing

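Over all genes 535 passed and among the 32 members 1, Acta2. DESeq2 size factors, upper quartile scaling, either change of the filter and the mix as a covariate kept Acta2 as the 1 member called. The DESeq2 Wald test called 1183 of 27028 genes with any count and 2 members, Vtn and Acta2. Without each library in turn the number of genes called ran from 171 (without WT library 3) to 767 (without WT library 4), and was 222 without WT library 1 and 321, 315 and 281 without Nr2f1 het library 1, 3 or 4. The members called then ran from 0 to 1, and without Nr2f1 het library 4 the 1 was Vtn. Odd-numbered libraries alone gave 557 genes and 1 member, Vtn, even-numbered ones alone 78 genes and 0 members, and without WT libraries 1 and 3 together there were 170 genes and 0 members. The endothelial median was 0.031 in odd-numbered libraries and the mural median 0.039 in even-numbered ones, against -0.016 and 0.14 with all; the cause was not tested. Of the 135 further vascular genes tested, 15 were called higher with all libraries and 6 to 21 without each library in turn. The 6 were found without WT library 3 and the 21 without WT library 4. Over all genes tested, 2.62% were called higher with all libraries, 0.910% without WT library 3 and 3.94% without WT library 4. The DESeq2 Wald test called 23 of the vascular genes higher and 1 lower, and 3.39% of all genes higher.

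With the replicate number as a block, 406 genes and Acta2 passed (log2 fold change 0.54, edgeR adjusted p = 0.0330). Deviations of same-numbered libraries from their group means correlated between -0.093 and 0.027 across genes, and 0 of 8 libraries correlated best with its own number. Pairing by number was thus not seen in these correlations, which cannot tell whether animals were paired in their handling.

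Signs changed only for members that passed under no setting. Upper quartile scaling gave log2 fold changes of 0.0096 for Flt1, 0.0061 for Pdgfrb and 0.0066 for Rgs5. Odd-numbered libraries gave 0.041 for Pecam1, 0.029 for Tie1, 0.081 for Slc2a1, 0.044 for Abcg2, 0.077 for Ly6c1 and -0.17 for Myh11. Even-numbered ones gave 0.037 for Flt1, -0.11 for Sox18, 0.0081 for Egfl7, 0.035 for Pdgfrb, 0.032 for Rgs5 and -0.021 for Kcnj8. Without WT libraries 1 and 3 values were 0.061 for Flt1, 0.0087 for Tie1, -0.048 for Sox18, -0.012 for Emcn, 0.019 for Pdgfrb and 0.038 for Rgs5. Without each library in turn the range was -0.053 to 0.061 for Abcb1a, -0.027 to 0.021 for Flt1, -0.011 to 0.076 for Itm2a, -0.069 to 0.21 for Myh11, -0.028 to 0.012 for Pdgfrb, -0.035 to 0.022 for Rgs5, -0.16 to 0.014 for Slc2a1, -0.020 to 0.12 for Sox18 and -0.042 to 0.0066 for Tie1.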

Other observations

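Cd34, a sialomucin gene of endothelium and some other cells, went the other way from the vascular-list genes that passed. It had 43.7, 46.7, 36.7 and 40.7 CPM in Nr2f1 het libraries and 47.7, 51.5, 48.3 and 53.8 CPM in WT libraries. Every Nr2f1 het library lay below every WT library, at a fold of 0.832, and the gene did not pass (edgeR adjusted p = 0.0646). The CPM ranges of the genotypes did not overlap for 10.6% of all genes tested. Among the 135 further vascular genes tested, 46 log2 fold changes were negative and 89 positive. Cd34 was chosen after its values were seen. Its lowest value was that of Nr2f1 het library 3, the library in which 18 of the 32 members were highest among Nr2f1 het libraries. How many of all genes tested were highest there was not counted.

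Myocd, which encodes the smooth muscle co-activator of serum response factor, did not pass the filter on low counts and was not tested. It had 3, 6, 3 and 2 reads in Nr2f1 het libraries and 13, 12, 9 and 4 reads in WT libraries, and the groups overlapped, with Nr2f1 het library 2 above WT library 4. It was named after its values were seen, and no direction is drawn from these counts.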
